A study of Mus musculus with 10 samples.

Results

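The 10 genes Mtor, Rptor, Rps6kb1, Eif4e, Eif4ebp2, Eif4g1, Tsc1, Tsc2, Eef2 and Eef2k were followed in mouse hippocampal synaptoneurosomes, preparations of pinched-off and resealed synaptic compartments. They were chosen by name as a core of the mTOR pathway and of its control over protein synthesis, by a rule that uses no measured value, though with earlier results of these data known. All 10 were found among the 22255 genes of the gene table by gene identifier. Of the 10 libraries, 5 came from C57Bl/6J mice given vehicle and 5 from C57Bl/6J mice given AM6545, a CB1 cannabinoid receptor antagonist with limited entry into the brain. The mice of both groups were wild-type, the series describes the AM6545 treatment as sub-chronic, and the labels used here give no dose, sex or age. The comparison asks how the RNA content of synaptoneurosomes differed after the treatment. Whether each library stands for 1 mouse or for several is not given in the labels, so the p-values measure the spread between libraries, which may be technical.

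The kinase mTOR, with its partner raptor, forms a complex that senses nutrients and growth factors and is held back by the TSC1-TSC2 complex. When active, it phosphorylates S6 kinase 1 and the 4E-binding proteins. Phosphorylated 4E-binding protein releases the cap-binding protein eIF4E, which then joins the scaffold eIF4G1 to bring ribosomes to the mRNA, while eEF2 kinase slows elongation by phosphorylating the elongation factor eEF2. In neurons the pathway is known for its part in local protein synthesis near synapses and in lasting forms of synaptic plasticity. RNA levels do not report the phosphorylation through which most of these steps work.

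The libraries held 18106112 to 25899794 estimated counts. Markers of neurons and synapses were detected in every library, with summed levels of 6895 to 8554 CPM (counts relative to the library total) in the vehicle libraries and 7263 to 8325 CPM in the AM6545 libraries. Markers of other cells were present as well. The 6 oligodendrocyte markers summed to 12172 to 28264 CPM over the 10 libraries, and the 6 choroid plexus markers ranged from 58.6 CPM in vehicle 4 to 4830 CPM in another vehicle library. The part of these other cells in the levels below was not tested. In a bulk preparation, fewer compartments of one kind and less RNA per compartment cannot be told apart.

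None of the 10 genes differed between the treatments after adjustment over all genes. All 10 were among the 14358 genes that passed the filter on low counts, and each had an adjusted p of 0.9998 in edgeR's quasi-likelihood test. Over all genes tested, 0% had an adjusted p under 0.05. At an unadjusted p under 0.05 the test called 0 of the 10 members, and 1.88% of all genes. The gene nearest to that line was Rps6kb1, which encodes S6 kinase 1 and was 0.89-fold as high under AM6545. It was the 1 member of 10 whose 5 AM6545 libraries did not overlap the 5 vehicle libraries in CPM, against 0.293% of all genes with groups that did not overlap in either direction. Of the 10 members, 8 lay above 0 and 2 below, with a median log2 fold change of 0.037, beside 48.1% above 0 and a median of -0.006 over all genes.

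Several members are annotated with coding segments that some of their detected transcripts hold and others skip, and 3 of these segments are printed to show coding sequence by which the transcripts described below differ. Coordinates and sequences are those of GENCODE M21 on GRCm38, the assembly also named mm10. In the runs that hold a segment, capitals mark the segment and the lower-case letters are 15 bases of the exon on each side. In the run without the Rptor exon, capitals mark the stop codon.
Rptor with the 76-base exon, chr11:119811945-119812020, plus strand: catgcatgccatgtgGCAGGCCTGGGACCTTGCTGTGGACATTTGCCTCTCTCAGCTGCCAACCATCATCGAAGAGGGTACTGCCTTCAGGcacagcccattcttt
Rptor without that exon, to the stop codon: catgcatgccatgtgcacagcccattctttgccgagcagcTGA
Tsc2 129-base segment, chr17:24606224-24606352, minus strand: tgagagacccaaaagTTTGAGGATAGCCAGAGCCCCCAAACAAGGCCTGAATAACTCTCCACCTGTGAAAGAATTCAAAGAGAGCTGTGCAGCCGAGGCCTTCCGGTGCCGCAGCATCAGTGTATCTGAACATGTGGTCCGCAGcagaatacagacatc
Tsc2 69-base segment, chr17:24601389-24601457, minus strand: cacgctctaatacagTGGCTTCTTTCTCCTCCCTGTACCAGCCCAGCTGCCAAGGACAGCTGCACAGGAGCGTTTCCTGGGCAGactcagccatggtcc

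The levels of the 10 genes were first set in order per transcript length, as TPM, the transcript counts divided by annotated transcript length and scaled to the same sum in each library. Eif4e, the cap-binding protein gene, stood highest in the vehicle libraries at 214 ± 16.2 TPM (SD, n = 5), and Eef2, the elongation factor gene, followed at 206 ± 18.0 TPM. These 2 were not separated from each other over the 10 libraries (exact sign-flip permutation test, two-sided, p = 0.711), and both lay above more than 95% of the 18149 genes ranked, with 95.7% of genes below Eif4e and 95.4% below Eef2. Of the Eif4e level per length, 47.1 ± 4.55% under vehicle came from Eif4e-205, a transcript of 729 bases with 13.4 ± 1.58% of the gene's counts. The closeness of the 2 genes therefore rests on that transcript's length. The scaffold gene Eif4g1 came next at 46.4 ± 3.15 TPM, and Eef2 exceeded it 4.43-fold.

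Rps6kb1 stood at 35.4 ± 4.16 TPM, Tsc2 at 19.9 ± 4.74 TPM and Eif4ebp2 at 16.5 ± 3.14 TPM in the vehicle libraries. Eef2k stood at 13.1 ± 2.24 TPM and Mtor itself at 8.06 ± 0.764 TPM. Tsc1 at 6.41 ± 1.32 TPM and Rptor at 5.96 ± 0.693 TPM closed the order. The kinase, its partner raptor and TSC1 thus had the lowest RNA levels per length of the 10, with 50.6%, 46.2% and 47.1% of ranked genes below them, respectively.

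In this order 5 of the 9 neighbouring pairs were separated beyond the spread over the 10 libraries. Eef2 exceeded Eif4g1, Eif4g1 exceeded Rps6kb1 (1.41-fold), Rps6kb1 exceeded Tsc2 (1.79-fold) and Eef2k exceeded Mtor (1.69-fold) in 10 of 10 libraries, each with an adjusted p of 0.00439 in the exact sign-flip permutation test, from the smallest p that test can give (0.00195). Mtor exceeded Tsc1 in 7 of 10 libraries (1.32-fold, exact permutation adjusted p = 0.0281). The pairs Tsc2 and Eif4ebp2 (adjusted p = 0.309), Eif4ebp2 and Eef2k (adjusted p = 0.0879) and Tsc1 and Rptor (adjusted p = 0.406) were not separated in the same permutation test. When the gene count was instead divided by the length of the longest protein-coding transcript, Eef2 came before Eif4e, Mtor before Eef2k and Rptor before Tsc1, and 8 pairs were separated. The position of these neighbours therefore depended on how length was assigned.

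**Figure D1:**
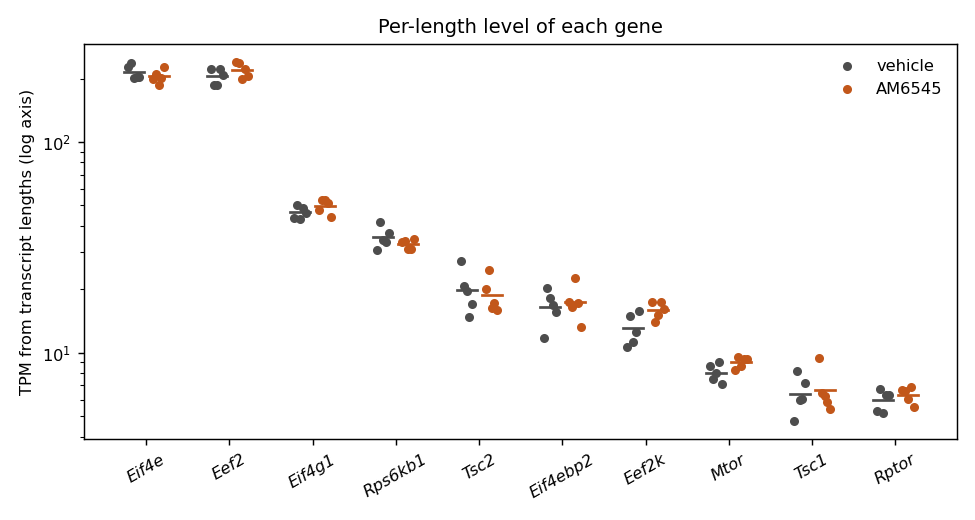
Per-length level of each gene in TPM (log axis) in the 5 vehicle (grey) and 5 AM6545 (orange) libraries, with points for libraries and lines for group means, in order of the vehicle mean. Eif4e and Eef2 lie together near 200 TPM, and Mtor, Tsc1 and Rptor lie under 10 TPM in every library.

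Mtor, the gene of the kinase itself (chr4:148448611-148557683, plus strand), was at 32.4, 28.6, 29.6, 33.7 and 28.3 CPM in vehicle libraries 1 to 5, and at 33.2, 39.1, 30.5, 29.4 and 30.8 CPM in AM6545 libraries 1 to 5. CPM values here are scaled with edgeR's TMM factors. The groups overlapped, and AM6545 2 was the highest library. In edgeR Mtor had a log2 fold change of 0.09 (SE 0.10, 95% interval -0.12 to 0.31), which is an interval of 0.92-fold to 1.24-fold.

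Rptor (chr11:119602905-119899576, plus strand) encodes raptor, which brings substrates to the kinase. It was at 19.1, 19.4, 17.1, 20.8 and 19.5 CPM in the vehicle libraries and at 20, 20.7, 19.3, 21.6 and 17.8 CPM in the AM6545 libraries. The groups overlapped over most of their range, from 17.8 to 20.8 CPM. Raptor's gene had a log2 fold change of 0.05 (SE 0.10), with an interval of 0.90-fold to 1.19-fold.

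The 2 genes of the inhibitory complex, whose product switches off the GTPase Rheb, were also close in their group means. Tsc1 (chr2:28641228-28691167, plus strand) was at 14.1, 18.0, 15.7, 16.2 and 18.2 CPM in the vehicle libraries and at 19.7, 19.5, 15.3, 14.3 and 13.7 CPM in the AM6545 libraries. AM6545 1 and 2 lay above every vehicle library and AM6545 5 below every one, so the treated libraries spread on both sides. Tsc2 (chr17:24595816-24632630, minus strand) was at 41.5, 48.2, 42.7, 43.0 and 45.2 CPM under vehicle and at 46.8, 47.4, 41.8, 45.3 and 43.0 CPM under AM6545. Its groups overlapped throughout. The log2 fold changes were 0.01 for Tsc1 (SE 0.13, 0.83-fold to 1.21-fold) and 0.02 for Tsc2 (SE 0.09, 0.90-fold to 1.16-fold). Exons of Tsc2 overlap exons of Pkd1 on the other strand, and 9.72% of its 31-base words also occur in other genes, so part of its count cannot be told apart from theirs if strand was not used.

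Rps6kb1 (chr11:86498871-86544805, minus strand) encodes S6 kinase 1, the kinase that mTOR complex 1 activates and that phosphorylates ribosomal protein S6. It was at 70.4, 70.9, 74.1, 71.4 and 72.6 CPM in the vehicle libraries and at 68.0, 64.4, 64.7, 61.3 and 61.8 CPM in the AM6545 libraries. Every AM6545 value was lower than every vehicle value, and the closest pair were 68.0 CPM in AM6545 1 and 70.4 CPM in vehicle 1. The means were 71.9 ± 1.48 and 64.0 ± 2.71 CPM (SD, n = 5 each).

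The log2 fold change of Rps6kb1 was -0.17 (SE 0.08, 95% interval -0.34 to 0.00, adjusted p = 0.9998 in edgeR). The direction was the same in each of the other models tried, with log2 fold changes of -0.20 to -0.15. The unadjusted p was 0.0549 in the main edgeR fit. It was under 0.05 with DESeq2 size factors, with the DESeq2 Wald test, with limma-voom, and in edgeR without vehicle 1 or without AM6545 1. In each of the other models it was above 0.05, and it reached 0.125 in edgeR without AM6545 4. The adjusted p missed the threshold in every model. Per length, the groups did overlap: Rps6kb1 was at 30.7, 41.7, 34.4, 33.5 and 36.9 TPM under vehicle and at 33.6, 33.9, 31, 31.2 and 34.8 TPM under AM6545. Exons of Rnft1 overlap those of Rps6kb1 on the other strand.

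**Figure D2:**
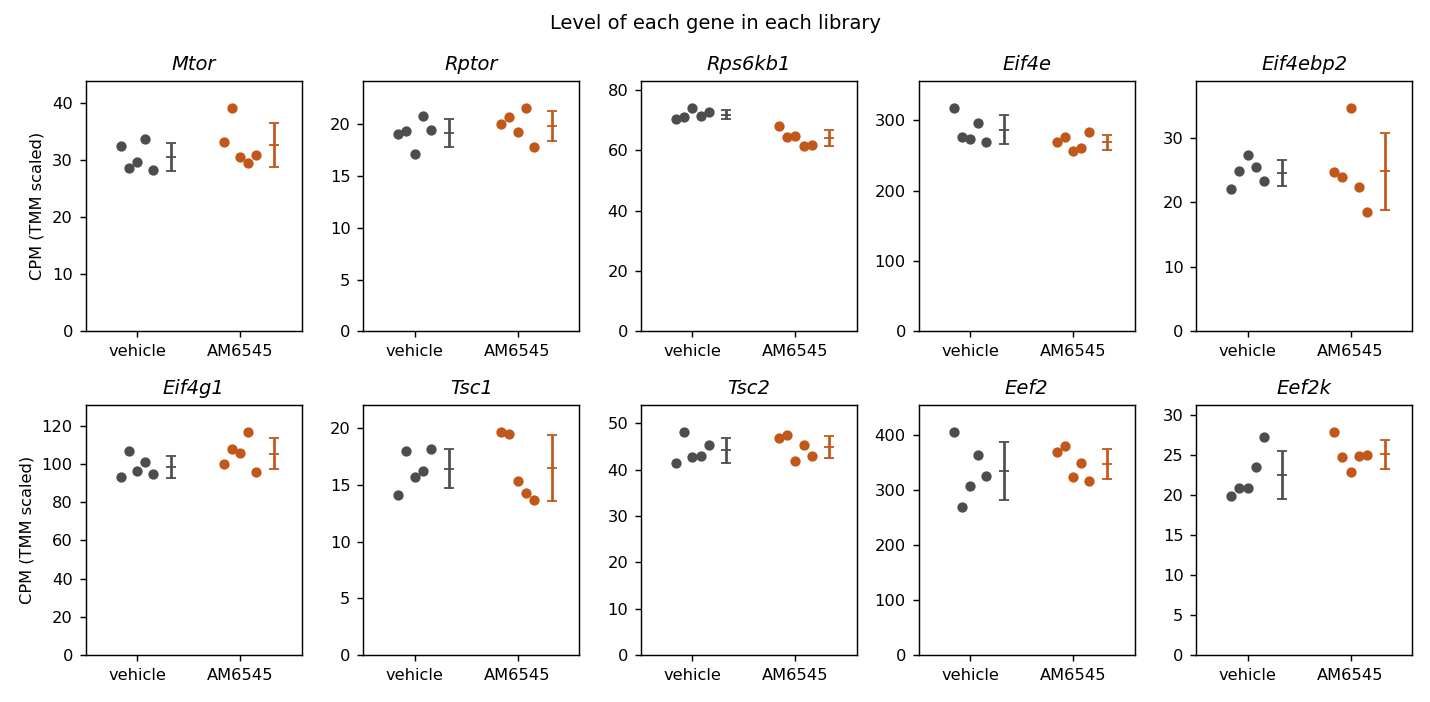
Level of each gene in CPM scaled with TMM factors (axes start at 0) in the vehicle (grey) and AM6545 (orange) libraries, in order of library number from left to right, with group mean and SD beside the points. The 5 AM6545 values of Rps6kb1, 61.3 to 68.0 CPM, lie below its vehicle values of 70.4 to 74.1 CPM, and the groups of the other 9 genes overlap.

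Eif4e (chr3:138526179-138559696, plus strand), whose product binds the mRNA cap, was at 318, 277, 274, 297 and 269 CPM in the vehicle libraries and at 269, 276, 257, 261 and 283 CPM in the AM6545 libraries. Vehicle 1 was the highest and AM6545 3 the lowest, and the groups overlapped. Its log2 fold change was -0.09 (SE 0.09), with an interval of 0.83-fold to 1.07-fold. Of its 31-base words 8.75% occur in other genes.

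Eif4ebp2 (chr10:61428491-61452661, minus strand) encodes the 4E-binding protein best known from the brain, which keeps eIF4E from the scaffold. It was at 22, 24.8, 27.3, 25.4 and 23.2 CPM under vehicle and at 24.6, 23.9, 34.6, 22.3 and 18.5 CPM under AM6545. AM6545 3 was the highest of the 10 libraries and AM6545 5 the lowest, and the SD was 5.94 CPM under AM6545 beside 2.04 CPM under vehicle. Eif4ebp2 had a log2 fold change of 0.01 (SE 0.14, 0.83-fold to 1.24-fold), and it was -0.13 without AM6545 3.

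Eif4g1 (chr16:20668313-20692884, plus strand), the scaffold that joins eIF4E to the helicase eIF4A and to the ribosome, was at 93.1, 107, 96.3, 101 and 94.9 CPM under vehicle. Under AM6545 it was at 100, 108, 106, 117 and 95.6 CPM. The highest value was that of AM6545 4, and the groups overlapped. For Eif4g1 the log2 fold change was 0.10 (SE 0.09), with an interval of 0.94-fold to 1.22-fold.

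Eef2 (chr10:81176631-81182498, plus strand), the factor that moves the ribosome along the mRNA, was at 406, 269, 307, 363 and 325 CPM in the vehicle libraries and at 369, 380, 323, 348 and 316 CPM in the AM6545 libraries. The highest and the lowest library were both vehicle libraries, with an SD of 52.5 CPM. For Eef2 the log2 fold change was 0.06 (SE 0.11, 0.88-fold to 1.23-fold), and it was -0.01 without vehicle 2. Of the 31-base words of Eef2 21.2% occur in other genes, the largest share among the 10, so its count depends on how reads shared with those genes were assigned.

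Eef2k (chr7:120842831-120907450, plus strand), the kinase that inactivates eEF2, was at 19.9, 20.9, 20.9, 23.5 and 27.2 CPM under vehicle and at 27.9, 24.7, 22.8, 24.9 and 25 CPM under AM6545. Every AM6545 library but AM6545 3 lay above vehicle 1 to 4, and vehicle 5 lay among the AM6545 values. Its log2 fold change of 0.16 was the largest positive one of the 10 (SE 0.11, 0.95-fold to 1.30-fold). Without vehicle 5 it was 0.24, with an unadjusted edgeR p under 0.05, beside an unadjusted edgeR p of 0.161 with all libraries.

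**Figure D3:**
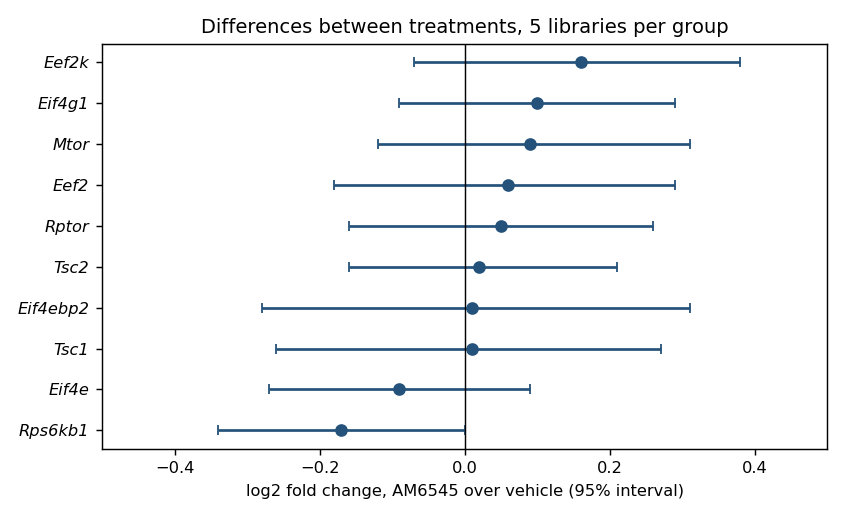
Log2 fold change of AM6545 over vehicle for each gene from edgeR, with bars for the 95% interval (5 libraries per group). The estimates lie between -0.17 for Rps6kb1 and 0.16 for Eef2k, and the interval of Rps6kb1 ends at 0.00.

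Ratios between partners were then formed within each library per length, since library scaling cancels in them. None of the 8 ratios differed between the treatments after adjustment (exact permutation tests over 252 arrangements of the libraries, two-sided; the smallest adjusted p was 0.619). Rptor stood at 0.747 of Mtor under vehicle and 0.704 under AM6545. Against Rictor, the partner that defines the other mTOR complex, Rptor stood at 0.189 in both groups, with 0.141 to 0.247 over the vehicle libraries. Rictor thus had the higher RNA level per length in every library. Tsc1 stood at 0.339 of Tsc2 under vehicle and 0.358 under AM6545, with vehicle 1 lowest at 0.173. In vehicle 1, Tsc2 was the lowest of all libraries in CPM (41.5) but the highest in TPM (27.3). There the short retained-intron transcripts Tsc2-208 (623 bases) and Tsc2-210 (454 bases) were estimated at 74 and 30 counts, which weigh more per length. Tsc1 was also at its lowest vehicle level in that library, at 14.1 CPM and 4.73 TPM. How much of the low ratio comes from how length was assigned was not tested.

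The inhibitor gene Eif4ebp2 stood at 0.0776 of its target Eif4e under vehicle and at 0.0860 under AM6545. It was at least as high as its paralog Eif4ebp1 in every library, with ratios of 1.03, 1.90, 2.47, 1.90 and 2.17 under vehicle and 2.19, 1.91, 3.72, 3.12 and 1.36 under AM6545. Eif4ebp2-202, a transcript of 1422 bases, held 33.1 ± 4.41% of the Eif4ebp2 counts under vehicle but 66.6 ± 4.51% of its level per length. Both of these ratios therefore depend on how length was assigned, as does each ratio to Eif4e through Eif4e-205. Eif4g1 exceeded its paralog Eif4g3 in all 10 libraries, 1.37-fold under vehicle and 1.47-fold under AM6545 (exact permutation p = 0.0952, adjusted p = 0.619). With a library left out the smallest unadjusted permutation p was 0.0317, without vehicle 4, and the others were 0.0635 to 0.206. Eif4g1 stood at 0.217 of Eif4e under vehicle and at 0.244 under AM6545 (exact permutation p = 0.183). For this ratio the smallest unadjusted permutation p with a library left out was 0.0238, without AM6545 5, and the others were 0.111 to 0.341. Eef2 exceeded its kinase gene Eef2k 16.2-fold under vehicle and 13.9-fold under AM6545 (exact permutation p = 0.278).

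**Figure D4:**
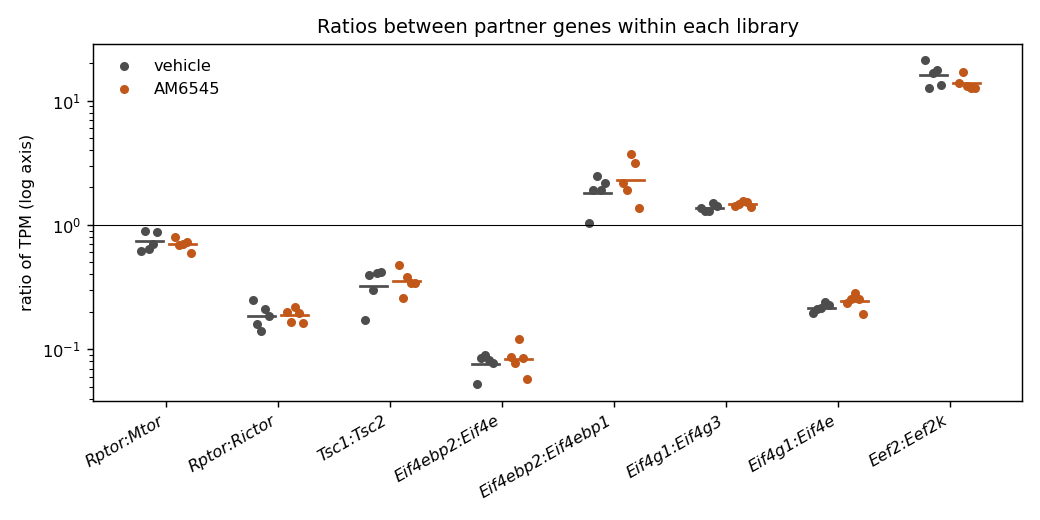
Ratio of TPM between partner genes within each library (log axis, line at 1), with points for the 5 vehicle (grey) and 5 AM6545 (orange) libraries and lines for the geometric mean. Each pair of groups overlaps, and the ratios run from 0.0522 for Eif4ebp2 over Eif4e in vehicle 1 to 21.1 for Eef2 over Eef2k in the same library.

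The transcript table gave a second reading of the 10 genes. Of their 101 listed transcripts, 75 had a count and 32 passed the filter. None of the 32 passed an adjusted p of 0.05 in edgeR's quasi-likelihood test, beside 0.00314% of the 31848 transcripts tested. One of the 32 had an unadjusted p under 0.05, beside 1.97% of all transcripts.

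That transcript was Rps6kb1-201 (ENSMUST00000020824.15), annotated as retaining an intron. It was estimated at 143, 208, 182, 206 and 209 counts under vehicle and at 144, 171, 99, 110 and 123 counts under AM6545. On the CPM scale 4 of the 5 AM6545 libraries were under the lowest vehicle library. Its log2 fold change was -0.51 (adjusted p = 0.9999 in edgeR). The main coding transcript, Rps6kb1-207, held 83.8 ± 1.58% of the gene's counts under vehicle and 85.6 ± 2.85% under AM6545, and its own log2 fold change was -0.14. Both of these transcripts were thus lower under AM6545 in their estimates, though neither passed the adjusted threshold.

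Other members differed widely in how their counts fell among transcripts. Eef2-201 held at least 99.9% of the Eef2 counts in every library, and Mtor-202, the full-length coding transcript, held 97.6 ± 1.55% of the Mtor counts under vehicle. Eif4e-201 held 83.6 ± 1.86%, Eif4ebp2-201 66.9 ± 4.41%, Eef2k-204 64.8 ± 12.2% and Eif4g1-201 56.5 ± 9.25% of their genes' counts under vehicle. Tsc2-217 held 38.7 ± 8.12% and Tsc1-202 28.1 ± 22.3%. No share of a main transcript differed between the treatments over the 10 genes (exact permutation tests, smallest adjusted p = 0.767).

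Part of the counts of several members was assigned to transcripts not annotated as coding for the full protein. For Eif4g1, 19.0 ± 7.23% of counts under vehicle went to transcripts annotated for nonsense-mediated decay, the pathway that removes mRNAs with early stop codons, and 16.9 ± 8.14% to transcripts with retained introns. For Rps6kb1 the retained-intron share was 12.6 ± 1.54%. For Tsc1 the decay share was 29.7 ± 7.08% and the retained-intron share 10.8 ± 1.55%. For Rptor, 72.9 ± 10.5% of counts went to decay-annotated transcripts under vehicle and 68.7 ± 39.1% under AM6545. Per length, as in the TPM values, transcripts annotated as coding held 24.6% of Rptor, 38.8% of Tsc1 and 50.2% of Eif4g1 under vehicle. They held 73.2% of Tsc2, 76.8% of Rps6kb1 and at least 95.5% of each other member. Transcripts with shorter coding sequences are included in these shares. Mtor-201, with 768 coding bases against 7647 in Mtor-202, held 16.9 ± 9.52% of Mtor per length under vehicle. Rps6kb1-204, with 222 coding bases against 1575 in Rps6kb1-207, held 16.5 ± 4.57% of Rps6kb1.

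Rptor-201 and Rptor-211 differ by the 76-base exon printed above and also elsewhere, with annotated lengths of 6594 and 6138 bases. The length of the exon is not a multiple of 3, and in Rptor-211, which skips it, the reading frame meets the printed stop codon 25 bases after the joined exons, with 23 exon junctions still downstream. The coding sequence is 1161 bases in Rptor-211 and 4005 bases in Rptor-201, which holds the exon. Rptor-201 was estimated at 33, 137, 107, 142 and 132 counts under vehicle and at 0, 68, 60, 93 and 353 counts under AM6545. Rptor-211 was estimated at 358, 267, 221, 364 and 319 counts under vehicle and at 506, 328, 283, 424 and 0 counts under AM6545.

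Of Rptor-201 and Rptor-211 together, the share with the exon, per length, was thus 7.81%, 32.3%, 31.1%, 26.6% and 27.9% under vehicle. It was 0%, 16.1%, 16.4%, 16.9% and 100% under AM6545. AM6545 1 and AM6545 5 stood at the opposite ends, while the gene's total in the same libraries was 20 and 17.8 CPM. None of the 31-base words of Rptor-201, and 2.77% of those of Rptor-211, occur in that transcript alone, set against every listed transcript, with or without a count. Between these 2 transcripts, the 76-base exon is in Rptor-201 only. How firmly the reads separate these transcripts was not tested. The difference between groups was not larger than this spread (exact permutation p = 0.976).

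Estimates of 0 in some libraries and over 100 counts in others were also seen for transcripts of Tsc1, Tsc2, Eif4g1, Eef2k and Eif4e. Eif4g1-205 was at 0, 257, 0, 0 and 245 counts under vehicle and at 362, 0, 0, 121 and 0 counts under AM6545. Eef2k-203 was at 124 counts in vehicle 2, 122 in AM6545 1 and 0 elsewhere. Tsc1-201 was at 0, 190, 0, 0 and 0 counts under vehicle and at 157, 214, 0, 189 and 136 counts under AM6545, while Tsc1-204 was at 0 in vehicle 1 and 2 and in AM6545 1, 2, 4 and 5. Tsc1-201 has no 31-base word of its own. Tsc2-201, which skips the printed 129-base segment of 43 codons, was at 0, 53, 0, 89 and 299 counts under vehicle and at 218, 190, 83, 192 and 101 counts under AM6545, also with no word of its own. Only Tsc2-203 and Tsc2-217, which hold the segment, and Tsc2-201 were compared for it. Of these, 90.5 ± 12.6% held the segment under vehicle and 82.1 ± 4.56% under AM6545 (exact permutation p = 0.198). Tsc2-221, with 11.3 ± 5.82% of the gene's counts under vehicle, did not enter, so these are not shares of all Tsc2 transcripts.

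The 69-base Tsc2 segment of 23 codons was present in 43.4 ± 6.99% of the transcripts compared under vehicle and 48.7 ± 5.15% under AM6545 (exact permutation p = 0.222). These were Tsc2-217, which holds it, and Tsc2-203, Tsc2-221 and Tsc2-201, which skip it. In Eif4e, the transcript Eif4e-205 took 13.4 ± 1.58% of the gene's counts under vehicle but 47.1 ± 4.55% of its level per length, since its annotated length is 729 bases against 4991 for Eif4e-201.

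Shorter segments were compared in Eif4g1 and Tsc1. In Eif4g1, a segment of 7 codons (chr16:20674786-20674806) was held by 51.9 ± 11% of the transcripts compared under vehicle and 52.4 ± 11.9% under AM6545. Only Eif4g1-201, which holds it, and Eif4g1-205, Eif4g1-206 and Eif4g1-222, which skip it, were compared. Eif4g1-210, with 16.6 ± 8.04% of the gene's counts under vehicle, did not enter. Nor did Eif4g1-202, with 0 counts under vehicle and 4.3 ± 4.39% of the gene's counts under AM6545. In Tsc1, a 20-base segment (chr2:28675643-28675662) was held by 39.4 ± 9.82% of the transcripts compared under vehicle and 34.7 ± 14.6% under AM6545. A segment of 5 codons (chr2:28678952-28678966) was held by 70.6 ± 23.8% and 85.4 ± 12.7%, respectively. None of the 7 segments tested differed between the treatments (exact permutation tests, smallest adjusted p = 0.593).

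**Figure D5:**
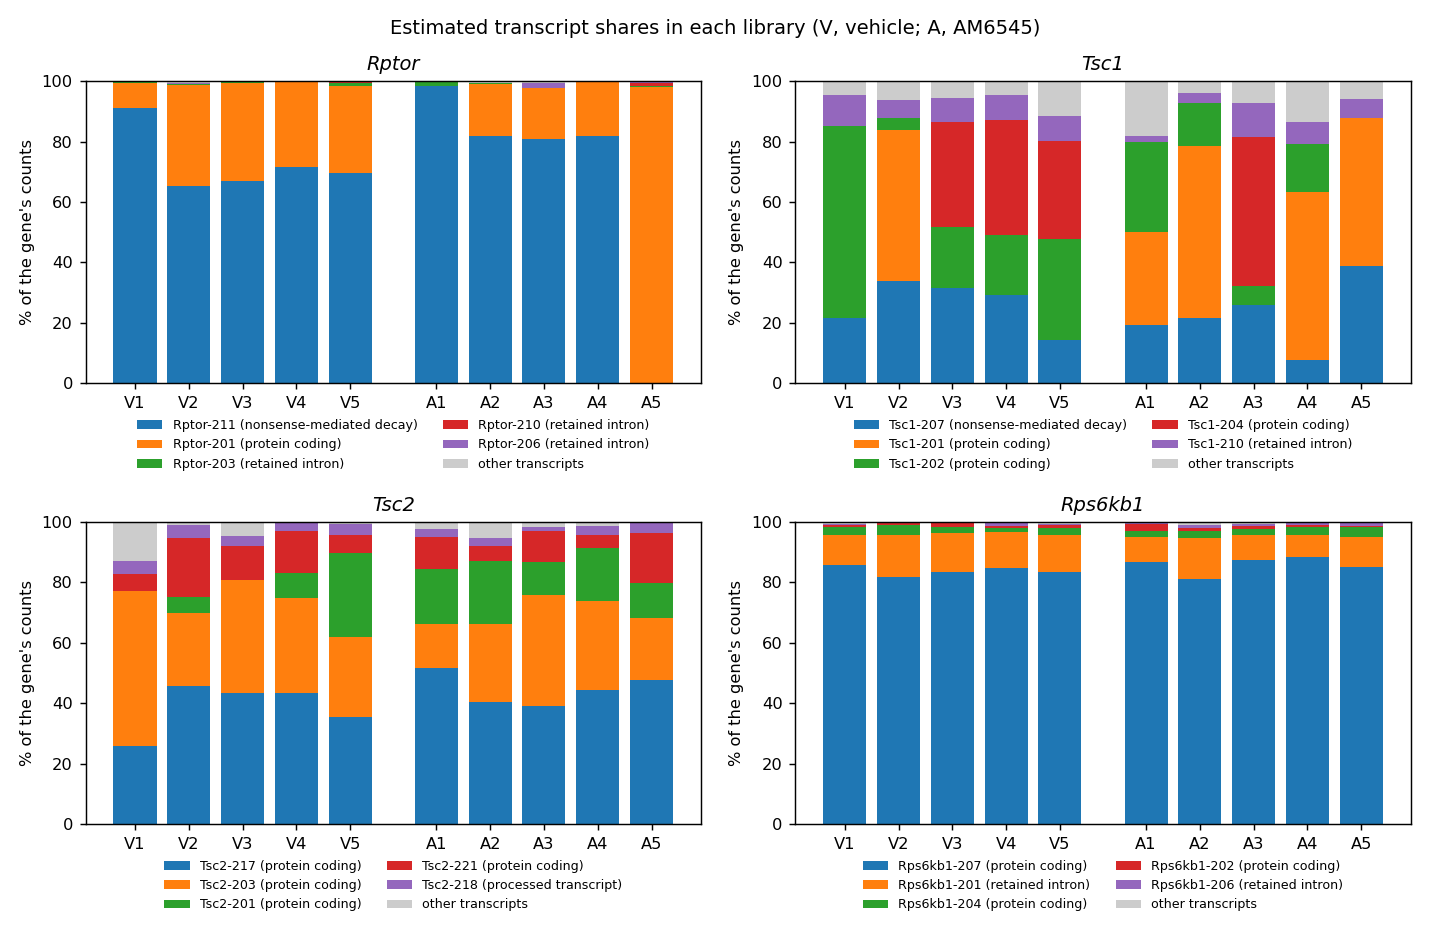
Share of each gene's estimated counts held by its 5 leading transcripts (stacked bars, in percent) in vehicle libraries V1 to V5 and AM6545 libraries A1 to A5, for Rptor, Tsc1, Tsc2 and Rps6kb1. Rptor-201 goes from 0 counts in A1 to 353 in A5, Tsc1-201 is at 0 in V1, V3, V4, V5 and A3, and Rps6kb1-207 holds 81% to 88.3% of the Rps6kb1 counts.

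The members also differed in how steady they were over the 10 libraries. The SD of log2 CPM was 0.08 for Tsc2, 0.09 for Eif4e and 0.10 for Rptor, Rps6kb1 and Eif4g1. Among genes of like level, 1.61% had a lower SD than Tsc2, 3.82% than Rptor, 5.42% than Eif4e, 8.58% than Rps6kb1 and 9.93% than Eif4g1. Eif4ebp2 was at the other end with an SD of 0.23, above 75.9% of genes of like level.

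Of the 45 pairs of members, none was correlated over the 10 libraries after adjustment, and 3 had an unadjusted permutation p under 0.05 for Pearson's r. Tsc1 and Tsc2, whose products bind each other, had r = 0.761 (permutation p = 0.0157, adjusted p = 0.487) and rho = 0.685 (permutation p = 0.0348, adjusted p = 0.725). Without the 2 libraries farthest from the median r was 0.620, and it was 0.875 within the vehicle and 0.764 within the AM6545 libraries. Mtor and Eef2 had r = 0.689 (permutation p = 0.0257, adjusted p = 0.487), rho = 0.673 (permutation p = 0.0386, adjusted p = 0.725) and r = 0.732 without the 2 farthest libraries. Rptor and Eif4g1 had r = 0.675 (permutation p = 0.0325, adjusted p = 0.487), rho = 0.624 (permutation p = 0.0609, adjusted p = 0.725) and r = 0.488 without them. Within the vehicle and the AM6545 libraries, r was 0.782 and 0.749 for Mtor and Eef2, and 0.330 and 0.886 for Rptor and Eif4g1. The median r was 0.12 over the 45 pairs and -0.00 over all gene pairs.

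As a description over the same 10 libraries, the genes most like Mtor in log2 CPM were Arhgef2 (r = 0.924, rho = 0.830), Fancb (r = 0.907, rho = 0.891) and Sltm (r = 0.901, rho = 0.770) among 14357 others. Those most like Eef2 were Lactb (r = 0.974, rho = 0.988), Ckb (r = 0.971, rho = 0.927) and Fah (r = 0.963, rho = 0.939). These were picked as the highest of many, so no p is given. Over the libraries Eef2 itself had r = 0.421 with the log2 total count, and Mtor had r = 0.035. Among the 10 members this r ran from -0.274 for Eif4ebp2 to 0.551 for Rptor.

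The wider pathway was read from 8 lists holding 141 other genes, of which 139 were tested. None passed the adjusted threshold in edgeR, and 72 lay above 0 and 67 below, with a median log2 fold change of 0.003. At an unadjusted p under 0.05, 1 was higher and 3 were lower, beside 1.88% of all genes. By list, the counts above and below 0 were 6 and 4 for the mTOR complexes, 10 and 15 for growth factor and energy inputs, 14 and 14 for amino acid sensing at the lysosome, and 10 and 5 for outputs. They were 10 and 5 for cap binding, 11 and 8 for the ternary complex, 8 and 5 for eIF3, and 3 and 11 for elongation.

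The 3 lower genes were Prkaa2, Deptor and Paip1. Prkaa2, a catalytic subunit of the energy sensor AMPK that restrains mTOR complex 1, was at 35.4, 32.6, 32.0, 34.0 and 32.6 CPM under vehicle and at 25.6, 30.2, 25.5, 30.1 and 25.2 CPM under AM6545. Its groups did not overlap, the 1 case among the 139 genes, beside 0.293% of all genes, and it had a log2 fold change of -0.29 (SE 0.09, adjusted p = 0.9998 in edgeR). Deptor, an mTOR-binding inhibitor, was at 23.2 ± 3.61 and 19.0 ± 1.56 CPM (log2 fold change -0.29, adjusted p = 0.9998 in edgeR). Paip1, a poly(A)-binding protein partner that stimulates translation, was at 10.5 ± 1.28 and 8.40 ± 1.49 CPM (log2 fold change -0.33, adjusted p = 0.9998 in edgeR). The higher gene was Lpin1, a lipin regulated by mTOR complex 1, at 13.9 ± 1.25 and 17.2 ± 1.94 CPM (log2 fold change 0.31, adjusted p = 0.9998 in edgeR).

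The most abundant genes of each list gave the scale of the machinery around the members, per length under vehicle. Eif5a stood at 967 TPM and Eef1a1 at 956 TPM among elongation genes, and the start-site factors Eif1 and Eif5 at 788 and 603 TPM. The helicase gene Eif4a2 stood at 520 TPM and its cofactor Eif4h at 345 TPM, so that both exceeded Eif4e. Rps6, the substrate of S6 kinase 1, stood at 399 TPM and Rheb, the GTPase that switches mTOR on, at 386 TPM. Rraga and Lamtor1, which hold the kinase complex at the lysosome, stood at 205 and 201 TPM. Maf1 stood at 185 TPM, the eIF3 subunits Eif3g and Eif3k at 161 and 154 TPM, Akt1 at 109 TPM, and the mTOR complex components Akt1s1 and Mapkap1 at 61.6 and 50.5 TPM. The log2 fold changes of these 16 lay between -0.22 for Lamtor1 and 0.12 for Akt1, and none had an unadjusted edgeR p under 0.05.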

How the data were processed

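Synaptoneurosome RNA was extracted and SMARTer ultra-low-input libraries were made, per the labels' protocols. The authors deposited estimated counts per gene and per transcript for 10 libraries. Salmon 1.5.2 and mm10 are named in the submitters' processing notes, without a role. The annotation release, strand use and any pooling are not given in the sources used here. Estimated counts were rounded to whole numbers.

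Groups and replicate numbers came from the titles. Genes and transcripts were tested with edgeR 4.0.16 in R 4.3.3 (TMM, filterByExpr with minimum count 10 and minimum total 15, robust quasi-likelihood, group only), with two-sided p-values and Benjamini-Hochberg adjustment over all tested features and a threshold of 0.05. DESeq2 1.42.0 and limma 3.58.1 served as alternatives, with other scalings and filters, the replicate number as a block and each library left out. TPM, ratios and transcript shares were computed in Python 3.11.15 (scipy 1.17.1, numpy 2.4.6, pandas 2.3.3) with annotated transcript lengths. Correlations had permutation tests with 100000 resamples. The scripts were tested on simulated data.

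Names and coordinates are those of GENCODE M21, by identifier without version (99.16% of 102392 transcripts), and the deposited tables may rest on another release. Coding segments had at least 15 bases and came from coding or decay-annotated transcripts with at least 1% of the gene's counts in the vehicle libraries. They had at least 5% of the transcripts compared on each side in the vehicle mean, so both limits used the vehicle libraries only. This comparison was chosen after seeing the data. Of the 7 segments tested, 1 is not reported here.

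The members and lists were chosen with earlier results of these data known. Named were all members, the 2 highest genes of each list in TPM, up to 8 list genes of smallest unadjusted p under 0.05, ratio partners, each member's main transcript, member transcripts with an unadjusted p under 0.05, and the 3 genes most like Mtor and Eef2. Other transcripts were named after their values were seen. A level of 3 counts corresponds to at most 0.166 CPM in any library. Reads carry no molecular identifiers, so they cannot be taken as independent molecules, and the error of splitting reads among transcripts is not in the standard errors.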

Additional observations from a re-analysis of the deposited data

Results flagged for a closer look

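In 6 of 56 groups of 5 libraries, the highest or the lowest library stood apart from the other 4 by more than Dixon's 95% limit of 0.71 of the range. Chance flags about 1 in 20 groups, or 2.8 of 56, if values are independent and normal. Bounded shares and ratios of the same genes need not be, so no excess can be read from the 6. Vehicle 1 had a log2 ratio of Eif4ebp2 to Eif4e of -4.26, beside -3.69 to -3.47 in the other vehicle libraries. The main transcript of Rptor took 91.12% of the gene's counts in vehicle 1, beside 65.16% to 71.66% in the other vehicle libraries, and 0.00% in AM6545 5, beside 80.79% to 98.51% in the other AM6545 libraries. The main transcript of Eif4ebp2 took 58.63% in AM6545 4, beside 65.11% to 67.74%. The main transcript of Eef2k took 43.52% in vehicle 2, beside 67.35% to 74.40%. For Eef2 the main transcript took 99.95% in AM6545 1, beside 100% in the other AM6545 libraries. Since those other libraries tied, any lower share would have been flagged.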

How the results depend on the processing

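No member passed an adjusted p of 0.05 under any alternative run. The count of members with an unadjusted p under 0.05 was 1 with DESeq2 size factors, with the DESeq2 Wald test and with limma-voom (Rps6kb1 in each), and 0 to 1 with a library left out: Rps6kb1 without vehicle 1 or without AM6545 1, and Eef2k without vehicle 5. Over all genes, 1 passed the adjusted threshold with limma-voom, and 0 to 1 with a library left out. Of the pathway genes, 7 had an unadjusted p under 0.05 with limma-voom, and 2 to 5 with a library left out, with 2 without AM6545 4. Over all transcripts, 1 passed the adjusted threshold, and 11 did with the DESeq2 Wald test, 2 with no filter, 0 with limma-voom or with at least 10 counts in every library, and 0 to 4 with a library left out. Of the members' transcripts, the unadjusted count was 2 with DESeq2 size factors, the DESeq2 Wald test or no filter, 3 with limma-voom, and 1 to 3 with a library left out. With the longest coding transcript as length, 8 neighbouring pairs were separated, and 4 to 6 with a library left out. The causes of these changes were not tested, other than that fewer libraries entered.

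The log2 fold changes of Eif4ebp2 and Tsc1 lay near 0 and changed sign in limma-voom, to -0.08 and -0.09. With a library left out they ranged from -0.13 to 0.10 and from -0.08 to 0.07, that of Eef2 from -0.01 to 0.14, and the log2 differences of Rptor to Rictor from -0.08 to 0.13, of Tsc1 to Tsc2 from -0.10 to 0.23 and of Eif4ebp2 to Eif4e from -0.0029 to 0.27. Same-numbered libraries correlated at -0.186 to 0.393 in their deviations from the group means, and 3 of 5 correlated best with their own number. Since not every pair was above 0.1 and the labels tie no number to a shared animal or batch, pairing was not assumed, and the values leave it unsettled. With the replicate number as a block, 0 transcripts passed the adjusted threshold, 2 member transcripts had an unadjusted p under 0.05, and the log2 fold changes of Eif4ebp2 and Tsc1 were -0.0095 and -0.0048. With 5 libraries per group the smallest exact permutation p is 0.00794, and the spread between these libraries sets the width of the intervals given.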
